A study of Mus musculus with 6 samples.

Results

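Mouse bone marrow-derived macrophages (BMDMs) carried 993 genomic regions in which C/EBPα, IRF8 and JUNB all had peaks, in untreated cells as well as 1 h into treatment with IL-4. These regions were selected on measured values, namely the presence of a peak in each of 6 peak lists. Peaks of the 6 lists were merged wherever they shared at least 1 bp, which gave 60856 merged regions, and the regions holding a peak of every list were kept. Their number, and the presence of all 3 factors, are therefore a description and not a result.

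Chromatin immunoprecipitation sequencing (ChIP-seq) was performed with antibodies to the 3 factors in wild-type BMDMs on a C57BL/6 background, from mice aged 8 to 12 weeks. All 6 samples were differentiated for 6 days with L929 supernatant, a source of M-CSF, and were cross-linked with DSG and formaldehyde. The 3 control samples had M-CSF and no IL-4, and the 3 treated samples also received IL-4 at 20 ng/ml for 1 h. Each factor thus had 1 control and 1 IL-4 sample and no replicate, so no difference between the conditions could be tested. The depth of the libraries is unknown. The kit used for each library, of the 2 kits named, and any pooling of mice are not given in the sources used here. As a check of the cell type, all 8 of the 8 macrophage marker genes examined, Csf1r and Adgre1 among them, had a nearby peak in each C/EBPα and IRF8 list, and 6 and 3 had a JUNB peak in control and after IL-4. Of 4 T cell genes, at most 1 had a peak in any list, whereas up to 2 of 4 B cell, 2 of 4 neutrophil and 4 of 4 progenitor genes had one. A peak is not an expression level.

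C/EBPα is a basic leucine zipper factor that drives myeloid differentiation. IRF8 is an interferon regulatory factor that usually needs a partner such as PU.1 or an AP-1 dimer to bind DNA, and JUNB is a subunit of AP-1. Together with PU.1 such factors occupy macrophage enhancers before a signal arrives, and IL-4 then activates STAT6, which binds TTC and GAA arms set a few bases apart.

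Sequences of 9 of the regions are given on the plus strand of mm10 as read from the RefSeq GRCm38 assembly. They are examples, and none of them is from the annotated telomeric repeat, on which 56 of the 993 regions lay. The first 3 are among the regions with the highest ranks in all 6 lists and consist of tandem repeats, and for 2 of them the 60 central bases are given. In the others, capitals mark AP-1 (TGACTCA), C/EBP (TTGCNNAA), PU.1 (GAGGAAGT), ETS-IRF (GGAANTGAA) and IRF (GAAANNGAA) letters on either strand, and TTC and GAA arms 3 or 4 bases apart. None of the sequences held PU.1 or ETS-IRF letters. A match is a description and not a binding site. Each region is named by the nearest gene in the files.
Tcp10c, CTGTG repeat, chr17:13306080-13306139: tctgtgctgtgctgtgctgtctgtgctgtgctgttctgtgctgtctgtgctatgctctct
Gm5458, major satellite GSAT_MM, chr14:19417590-19417649: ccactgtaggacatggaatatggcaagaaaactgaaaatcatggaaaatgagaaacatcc
Tbc1d14, array without a repeat name in the files, chr5:36630483-36630682: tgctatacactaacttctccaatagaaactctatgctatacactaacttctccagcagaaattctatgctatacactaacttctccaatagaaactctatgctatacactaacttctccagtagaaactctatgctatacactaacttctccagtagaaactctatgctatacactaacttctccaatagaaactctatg
The next 2 scored at least 1.5-fold higher for every factor after IL-4.
Casp6, chr3:129904825-129905024: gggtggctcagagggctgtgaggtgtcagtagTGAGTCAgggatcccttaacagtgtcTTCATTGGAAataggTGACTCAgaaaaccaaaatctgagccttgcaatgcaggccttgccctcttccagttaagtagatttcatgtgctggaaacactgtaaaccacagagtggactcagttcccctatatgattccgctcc
Ccdc141, chr2:77202063-77202262: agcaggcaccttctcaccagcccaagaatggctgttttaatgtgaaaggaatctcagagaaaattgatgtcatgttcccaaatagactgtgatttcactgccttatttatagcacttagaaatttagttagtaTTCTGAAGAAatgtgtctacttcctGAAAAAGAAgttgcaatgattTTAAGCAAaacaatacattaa
The next 3 scored at least 1.5-fold lower for every factor after IL-4, and the annotation places the third of them on an L1MC3 repeat.
Rassf6, chr5:90612307-90612506: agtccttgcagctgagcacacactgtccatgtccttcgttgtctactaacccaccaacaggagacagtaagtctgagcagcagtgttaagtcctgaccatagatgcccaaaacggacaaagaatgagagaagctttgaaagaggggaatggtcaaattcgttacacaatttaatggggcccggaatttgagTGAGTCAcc
Rhov, chr2:119267032-119267231: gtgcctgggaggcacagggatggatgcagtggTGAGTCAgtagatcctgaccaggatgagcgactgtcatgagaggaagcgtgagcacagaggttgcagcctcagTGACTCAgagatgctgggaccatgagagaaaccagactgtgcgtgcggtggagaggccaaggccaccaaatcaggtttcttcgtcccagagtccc
1700011L22Rik, chr8:79243513-79243712: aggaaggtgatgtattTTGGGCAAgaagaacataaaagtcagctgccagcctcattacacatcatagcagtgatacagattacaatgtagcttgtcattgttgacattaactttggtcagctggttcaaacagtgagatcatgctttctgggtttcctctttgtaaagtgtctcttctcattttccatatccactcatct
The last is from a promoter, that of Arhgap22, and its window held none of the marked letters.
Arhgap22, chr14:33216460-33216659: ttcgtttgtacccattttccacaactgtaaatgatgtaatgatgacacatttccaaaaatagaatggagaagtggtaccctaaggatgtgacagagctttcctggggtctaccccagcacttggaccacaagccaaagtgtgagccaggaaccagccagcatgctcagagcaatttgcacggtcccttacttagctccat

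The regions were a large share of the JUNB lists and a small share of the others. They held 43.1% of the JUNB peaks after IL-4 and 25.6% of those in control, against 4.19% and 4.13% of the C/EBPα peaks and 2.74% and 2.42% of the IRF8 peaks. The JUNB lists were also the shortest, with 3940 and 2325 peaks. They limited the class, because among 1805 regions with a peak of 5 lists, 1270 lacked only JUNB after IL-4 and 374 lacked only JUNB in control. The lowest of the 6 scores was the JUNB score after IL-4 in 554 of the 993 regions. The regions just inside the selection were near Zfp438, with a JUNB score of 2.17 after IL-4, and near Fam53b, with a JUNB control score of 2.26, and those just outside were the 1805 with 5 lists, which have no score in the missing list. The files' score is taken here to be a negative log10 p or q value from the peak caller. Among the JUNB peaks in the top decile of score, 65.8% after IL-4 and 59.2% in control lay in these regions.

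The regions had a median width of 509 bp and a range of 182 to 3823 bp. All merged regions had a median width of 304 bp. In 904 of them each list had a single peak, and in 952 at least 1 base was covered by a peak of all 6 lists. Outside tandem repeats the centres of the C/EBPα and JUNB control peaks lay a median of 37.0 bp apart, those of IRF8 and JUNB 38.5 bp and those of C/EBPα and IRF8 43.5 bp. The same factor in both conditions gave 26.0 bp for C/EBPα, 32.0 bp for IRF8 and 31.5 bp for JUNB. Centres within 50 bp of each other were found in 55.4% to 60.7% of regions for different factors and in 68.6% to 76.9% for the same factor. Merging of overlapping peaks limits all these distances.

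The regions lay away from promoters. Of the 993, 536 (54.0%) were intergenic, 418 (42.1%) intronic and 15 (1.51%, Wilson 95% interval 0.918% to 2.48%) at promoters in the authors' annotation. Promoters made up 9.06% of all merged regions and 6.18% of the 8182 regions with C/EBPα and IRF8 in both conditions and no JUNB peak. They made up 2.68% (1.92% to 3.72%) of the 1270 regions where JUNB was present in control only, an interval that overlaps that of the 993. Where JUNB was present after IL-4 only, in 374 regions, they made up 4.28% (2.65% to 6.84%). All intervals here and below are over regions, cover counting error alone and are not a test. The remaining regions were 10 at transcript ends, 6 in exons, 5 in 3' UTRs, 2 in non-coding transcripts and 1 on the mitochondrial chromosome. Among the intronic regions, 146 were in a first intron and 272 in a later one.

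The median distance to the nearest transcription start site (TSS) was 29614.5 bp (95% interval 26210 to 32769). It was 19441 bp for all merged regions, 20616.5 bp without JUNB and 22079.5 bp where JUNB was present after IL-4 only. Where JUNB was present in control only it was 25022.5 bp (22396 to 27597), an interval that overlaps that of this class. Only 20 regions (2.02%) lay within 1 kb of a TSS, whereas 180 (18.1%) lay beyond 100 kb. Outside tandem repeats the median of the regions was 28279.5 bp, and the comparison classes were not split in this way.

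**Figure D1:**
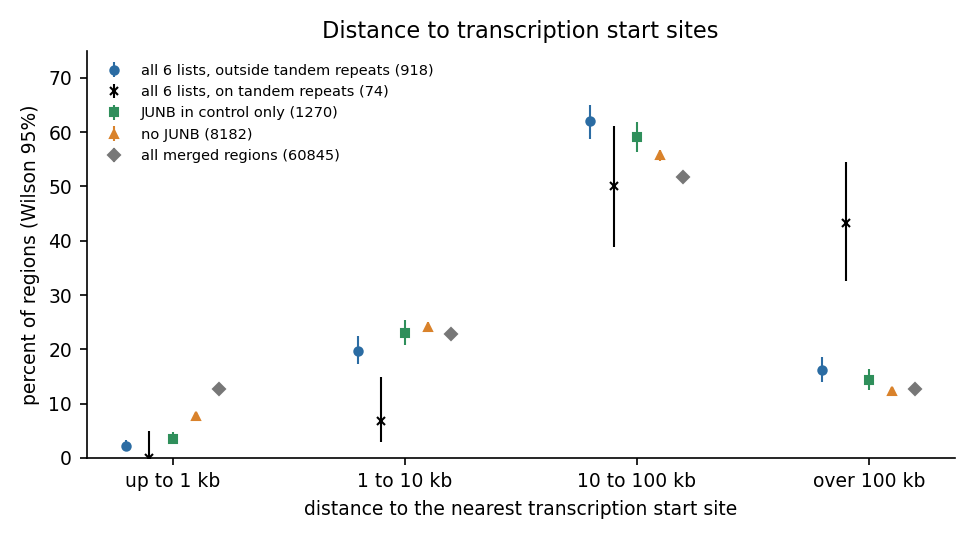
Distance from each region to the nearest TSS (x axis, 4 distance classes) against the percent of regions in that class (y axis, points with Wilson 95% intervals), for the regions of all 6 lists outside and on tandem repeats and 3 comparison classes. Up to 1 kb, regions of all 6 lists outside tandem repeats were at 2.18% and all merged regions at 12.7%, and on tandem repeats 43.2% of the regions lay beyond 100 kb.

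The 8 promoter regions of highest rank are described here. At Cd68, encoding a lysosomal glycoprotein of macrophages, C/EBPα scored 33.3 in control and 42.9 after IL-4, IRF8 87.8 and 115, and JUNB 9.98 and 5.46. At Clec12a, an inhibitory C-type lectin gene, C/EBPα scored 129 and 130, IRF8 127 and 132, and JUNB 16.9 and 5.58. At both promoters the JUNB score was lower after IL-4 while the others were similar or higher. Lair1, an inhibitory collagen receptor, had JUNB scores of 6.68 and 8.54, and Slc15a3, a lysosomal peptide transporter, 7.12 and 10.99, so JUNB scored higher after IL-4 at these 2. The highest JUNB score at a named promoter was at Dhrs9, a retinol dehydrogenase family gene, with 39.3 in control and 21.2 after IL-4. Arhgap22, a GTPase-activating protein gene, had 14.7 and 8.25. Scimp, an adaptor of Toll-like receptors, had 6.64 and 5.26, and I830077J02Rik 6.64 and 5.80. Over the 15 promoter regions the median JUNB change was -0.42 on the log2 scale, with a 95% interval from -0.84 to 0.35 that included no change.

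Tandem repeats formed a distinct part of the class. In 75 regions (7.55%, Wilson 95% interval 6.07% to 9.36%) the annotation named a simple repeat, satellite, low-complexity or rRNA element, or the region was mitochondrial, against 2.95% of all merged regions and 0.379% of the regions without JUNB. The annotated telomeric repeat accounted for 56 of the 75. All merged regions of the series held 105 regions on this repeat, so that 56 of 105 had a peak of every list, whereas 1 of the 8182 regions without JUNB and 3 of the 1270 with JUNB in control only were on it. The satellites GSAT_MM and SYNREP_MM gave 5 more. These regions are in the deposited lists, from which the authors had removed blacklisted regions. How reads were mapped to such repeats was not tested.

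Of the 10 regions with the highest ranks over the 6 lists, 5 were on tandem repeats, and of the first 20, 12 were. A rank here was the lowest of the percentiles that the region's scores had within the 6 lists. Regions of the annotated telomeric repeat near Asmt and Cr2 had JUNB scores of 73.8 and 81.6 and of 79.2 and 81.3, close to each other in both conditions. The satellite region near Gm5458 was the widest of all 993, at 3823 bp, and its 6 scores were nearly equal, from 57.05 to 62.82. The region named for Tbc1d14 lies in intron 2 of D5Ertd579e (chr5:36630273-36630867), and the letters shown above are an array that the annotation did not name as a repeat. A base there equalled the base 99 positions before in 97.0% of positions. By this measure 9 of the 918 regions outside annotated tandem repeats had at least 80% identity at some period up to 100 bases. Of these 9, 2 were on the arrays near 2700054A10Rik. Only 19 of the 75 regions counted as tandem repeats (25.3%) reached the same identity, so most of them did not. The 75 regions were thus not chosen by this measure.

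Scores of the factors were correlated on tandem repeats and only weakly elsewhere. Across the 75 regions, The Spearman correlation between the control scores of JUNB and C/EBPα was 0.70. IRF8 gave 0.61 with C/EBPα and 0.49 with JUNB. Across the other 918 regions these values were 0.12, 0.18 and 0.07. These are descriptions across regions that share the same 6 libraries, and regions are not replicates. The median JUNB score on tandem repeats was 17.7 in control and 18.03 after IL-4, above the 10.9 and 6.99 of the other regions. IRF8 scores there were lower than elsewhere in control, with a median of 13.1 against 27.2.

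**Figure D2:**
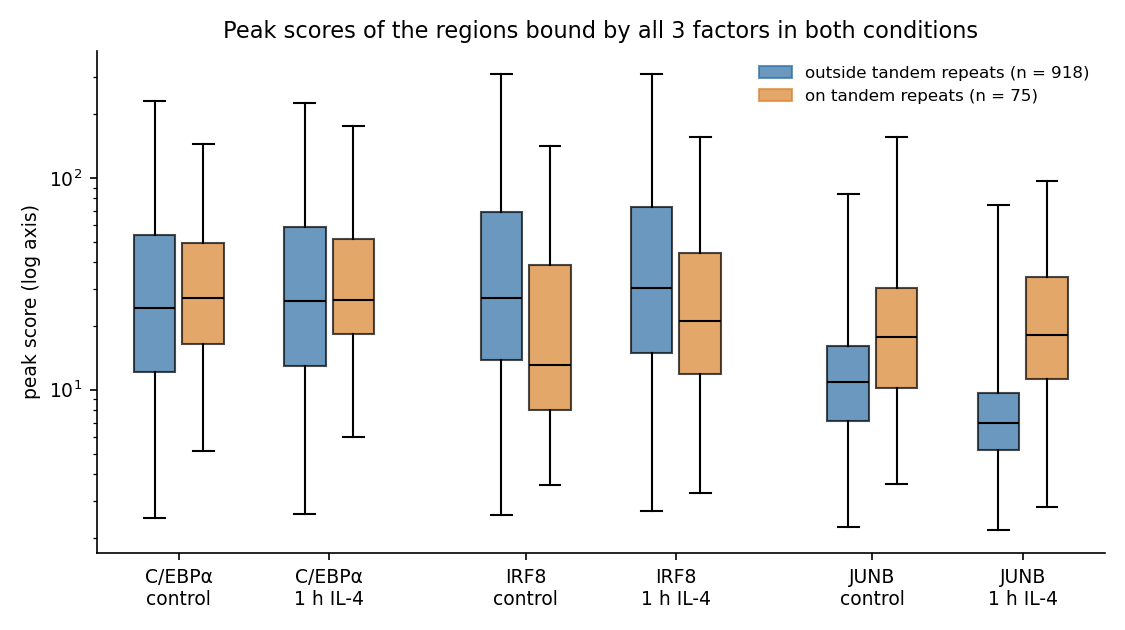
Peak scores on a log axis (y axis) of the 993 regions in each of the 6 lists (x axis), with boxes for quartiles, a line at the median and whiskers to the lowest and highest value. On tandem repeats (orange) the JUNB boxes are alike in both conditions, with medians of 17.7 and 18.03, while outside them (blue) the JUNB median was 10.9 in control and 6.99 after IL-4.

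The question of the design, whether binding of these factors changes soon after IL-4, can here be described only. JUNB scores were lower after IL-4 at most of the regions, with a median of 11.3 in control and 7.18 after IL-4 and a median log2 change of -0.56 (95% interval -0.63 to -0.48). The JUNB score was higher after IL-4 in 267 of 993 regions (26.9%). C/EBPα had a median log2 change of 0.07 (0.05 to 0.11) and a higher score in 57.1% of regions, and IRF8 0.10 (0.06 to 0.13) and 59.4%. JUNB thus scored lower while the other factors scored slightly higher, and the JUNB list as a whole also had a lower median score after IL-4. Dividing each list by its own median score shifts JUNB by 0.34 and IRF8 by 0.11. The JUNB median then became -0.22 with 40.8% of the 993 regions higher, 182 past 1.5-fold higher and 339 lower. IRF8 became 0.21 with 68.2% higher. The shares of all merged regions past the fold on this scale are not given here.

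The JUNB score ratio resembled that of other regions with JUNB. The 427 regions that had JUNB in both conditions but lacked a peak of another list had a median log2 change of -0.53 (95% interval -0.60 to -0.44), close to that of the 993. Both sets include tandem repeats, and their shares of these were not matched. JUNB scored at least 1.5-fold lower in 482 regions (48.5%) and at least 1.5-fold higher in 90 (9.06%). Among all 1420 regions with JUNB in both conditions, of which the 993 are a part, 47.8% were past this fold lower and 9.44% higher. For C/EBPα, 149 regions (15.0%) were higher and 92 (9.26%) lower, beside 17.7% and 17.8% of the 19055 regions with C/EBPα in both conditions. For IRF8, 209 (21.0%) were higher and 125 (12.6%) lower, beside 23.5% and 17.4% of 29087. Lower calls of C/EBPα and IRF8 were thus less common here than in the background, and higher calls were slightly less common. With JUNB in control only, 12.4% of regions were lower for C/EBPα and 14.6% for IRF8. With JUNB after IL-4 only, 12.3% and 8.29% were. Regions of this class had higher scores than most, and the part of the score level in this was not tested.

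**Figure D3:**
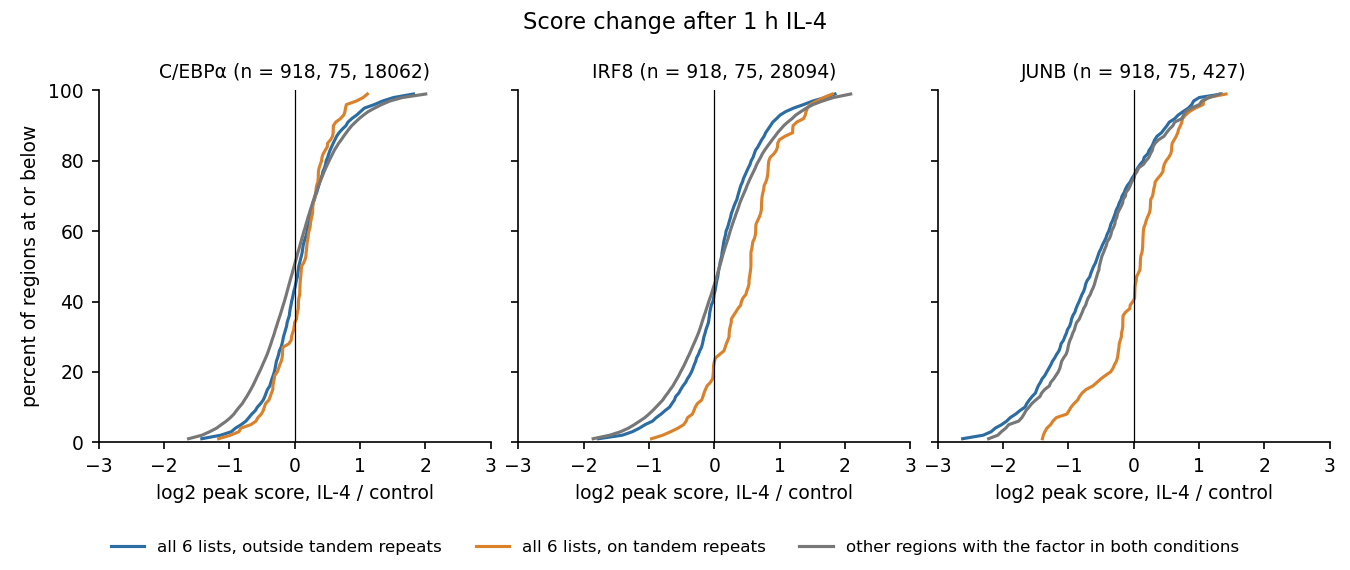
Cumulative distribution of the log2 ratio of peak scores, IL-4 over control (x axis), as the percent of regions at or below a value (y axis), for each factor and for 3 sets of regions whose numbers stand above each panel in the order of the legend. In the JUNB panel the curve of tandem repeats crosses the middle near 0.10 while the other curves cross it near -0.61 and -0.53. The last of these, for regions outside the class, was not split by tandem repeats.

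On tandem repeats JUNB did not share the lower scores. The median log2 change of JUNB was 0.10 (95% interval -0.06 to 0.18) in the 75 regions, and -0.61 (-0.69 to -0.54) in the 918 others. IRF8 was at 0.56 (0.36 to 0.64) on tandem repeats and 0.08 (0.05 to 0.12) elsewhere. C/EBPα was at 0.10 (0.06 to 0.24) and 0.06 (0.03 to 0.11), with overlapping intervals, and scored higher in 65.3% and 56.4% of regions. None of these differences was tested.

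The JUNB ratio also differed with the control score. Outside tandem repeats, the tertile with the lowest JUNB control scores (2.26 to 8.32) had a median log2 change of 0.09, the middle tertile (8.35 to 13.9) -0.78 and the tertile with the highest (13.9 to 84.0) -1.13. The control score both set the tertile and is the denominator of the ratio, and regions needed a peak in both lists, so the tertiles are not independent of the ratio. For C/EBPα the values were 0.23, -0.02 and 0.04, and for IRF8 0.36, 0.03 and 0.04.

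Changes of the factors were only weakly correlated. The Spearman correlation of the log2 changes over the 993 regions was 0.10 between IRF8 and C/EBPα, and JUNB gave 0.08 with C/EBPα and 0.07 with IRF8. The most frequent pattern of direction was C/EBPα and IRF8 higher and JUNB lower, in 237 regions (23.9%), while all 3 were higher in 105 and all 3 lower in 139. In 204 regions (20.5%) no factor was past 1.5-fold. JUNB alone was past it and lower in 254 regions (25.6%).

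AP-1 letters were more common in this class than in the comparison classes, of which the regions with JUNB in control only came nearest. Within 200 bp around the region centre, TGACTCA was found in 452 of the 993 regions (45.5%, Wilson 95% interval 42.4% to 48.6%), and in 449 of the 918 outside tandem repeats (48.9%). It was found in 33.6% of regions with JUNB in control only, 8.45% of those without JUNB, 11.3% of all merged regions and 4.08% of windows 2000 bp to either side. Presence of JUNB peaks chose the regions, and AP-1 is the motif of JUNB, so this is a property of the selection. The share grew with the JUNB control score, from 37.6% in the lowest tertile to 49.3% and 59.8%. The interval of the lowest tertile, 32.3% to 43.1%, overlaps the 31.1% to 36.3% of regions with JUNB in control only. Those regions had a median JUNB control score of 7, against 10.9 in the 918. AP-1 letters were not counted in JUNB regions that lacked C/EBPα or IRF8, so the share is not shown to be particular to this class. Matches lay a median of 29.5 bp from the centre.

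Motifs of other factors differed less between the classes than AP-1 did, and were more common than in the windows 2000 bp to either side. TTGCNNAA, the C/EBP letters, stood in 23.1% (20.5% to 25.9%) of the 918 regions, below the 29.2% (28.2% to 30.2%) of regions without JUNB above the 18.8% of all merged regions and above the 8.66% of the flanking windows. GGAANTGAA, an ETS-IRF composite, stood in 8.93% against 8.95% of all merged regions and 1.69% of the flanking windows. For GAAANNGAA these shares were 11.2%, 13.5% and 6.75%, and for GAGGAAGT 11.2% (9.34% to 13.4%), 10.95% and 1.36%. GAGGAAGT was more common in regions without JUNB, at 14.6% (13.9% to 15.4%). With JUNB in control only it stood in 14.0% (12.2% to 16.0%). TGTGGTTT, the RUNX letters, stood in 6.54% (5.11% to 8.32%) against 4.02% (3.87% to 4.18%) and 1.69%. They were nearly as common in regions without JUNB, at 5.66% (5.18% to 6.18%), and with JUNB in control only, at 5.59% (4.46% to 6.99%), with overlapping intervals. The composite of AP-1 and IRF letters, GAAA directly followed by TGANTCA, was rare but stood in 3.49% (2.48% to 4.88%) against 1.496% (0.960% to 2.32%) of regions with JUNB in control only, 0.414% of all merged regions and 0.257% of those without JUNB. This composite holds TGANTCA, which includes the AP-1 letters TGACTCA, and the regions were chosen by JUNB peaks. How far its share goes with that of AP-1 letters was not tested. Of the 918 regions, 10 had AP-1, C/EBP and either PU.1, ETS-IRF or IRF letters together, and 234 (25.5%) had none of them. GC content had a median of 45.5% in the 918 regions and 46.0% in all merged regions.

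**Figure D4:**
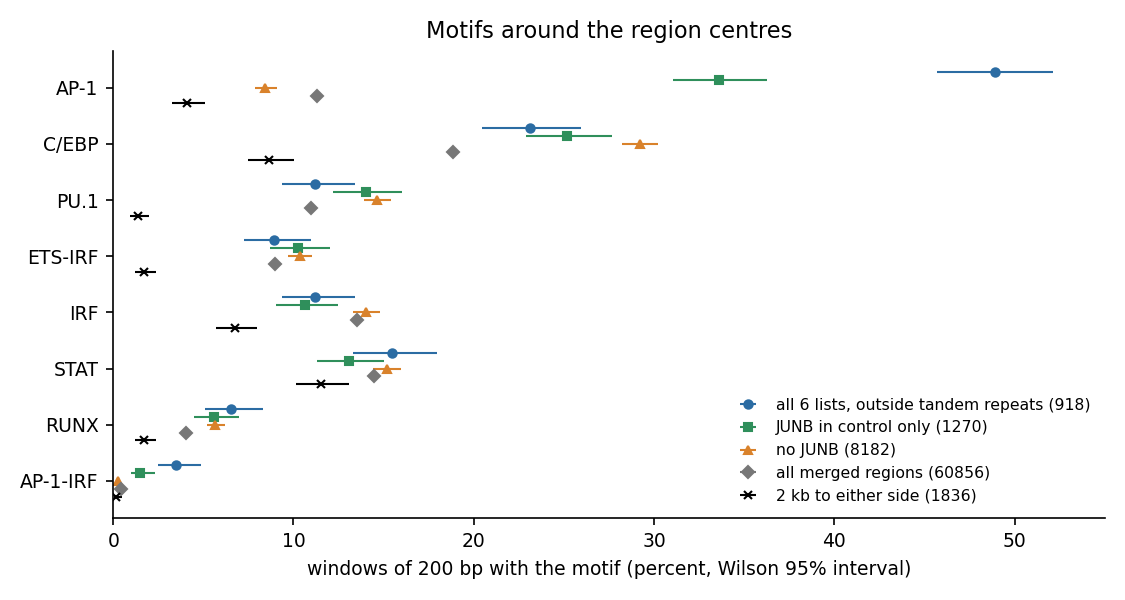
Percent of 200 bp windows (x axis, points with Wilson 95% intervals) that held each motif on either strand (y axis), for the regions of all 6 lists outside tandem repeats, 3 comparison classes and windows 2000 bp to either side. AP-1 stood in 48.9% of the regions of all 6 lists, 33.6% with JUNB in control only, 8.45% without JUNB and 4.08% of the flanking windows. AP-1-IRF is highest in the regions of all 6 lists at 3.49%.

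Score levels followed the motif of the factor. In the 918 regions the median C/EBPα control score was 55.6 with C/EBP letters and 20.0 without them. The median IRF8 control score was 148 with ETS-IRF letters and 25.4 without, and with GAAANNGAA it was 54.9 against 26.0. JUNB differed less, with 12.4 with AP-1 letters and 9.82 without. The log2 change of JUNB was -0.74 (95% interval -0.86 to -0.62) with AP-1 letters and -0.49 (-0.61 to -0.37) without, and the control scores differed in the same order.

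Regions with STAT-type arms 4 bases apart had other median score ratios than the rest. TTC and GAA arms 4 bases apart, the spacing that STAT6 is known to prefer, stood in 79 of the 918 regions (8.61%, Wilson 95% interval 6.96% to 10.6%), near the 7.70% of all merged regions. The median log2 change of JUNB was -0.14 (95% interval -0.30 to 0.06) in these 79 and -0.66 (-0.74 to -0.58) in the 839 others. C/EBPα was at 0.38 (0.09 to 0.57) against 0.06 (0.02 to 0.09), and IRF8 at 0.27 (0.08 to 0.60) against 0.07 (0.03 to 0.11). For C/EBPα and IRF8 these intervals overlap, for C/EBPα just at 0.09. JUNB scored at least 1.5-fold higher in 20 of the 79 regions and lower in 21, while in the 839 others the counts were 58 and 448. With arms 3 bases apart, in 68 regions, JUNB was at -0.58 (-0.81 to -0.29), an interval that just meets that of 4 bases, C/EBPα at 0.26 and IRF8 at 0.16. The 850 regions without arms 3 bases apart were at -0.61 for JUNB, 0.06 for C/EBPα and 0.08 for IRF8. For that spacing JUNB was thus alike with and without the arms. Regions with arms of either spacing also had lower JUNB control scores, with a median of 9.11 against 11.25 without them, and the JUNB ratio differed with the control score as given above. The split by spacing was made after the data were seen and no difference was tested.

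The same direction was seen in regions outside this class. Without JUNB, 630 regions with arms 4 bases apart had median log2 changes of 0.41 for C/EBPα and 0.43 for IRF8, against -0.04 and 0.02 in the 6940 regions with neither spacing. With 3 bases between the arms, in 664 regions, the values were 0.22 and 0.22. These come from the same libraries and are not independent samples. With each list divided by its median score the JUNB median in the 79 regions became 0.20 and that in the others -0.32, so its sign depended on the scaling. This scaling shifts all regions alike, so the distance of 0.52 between the medians could not change. That distance was 0.42 with a score of at least 5 in every list, 0.45 in 100 bp windows and 0.04 for arms 3 bases apart.

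**Figure D5:**
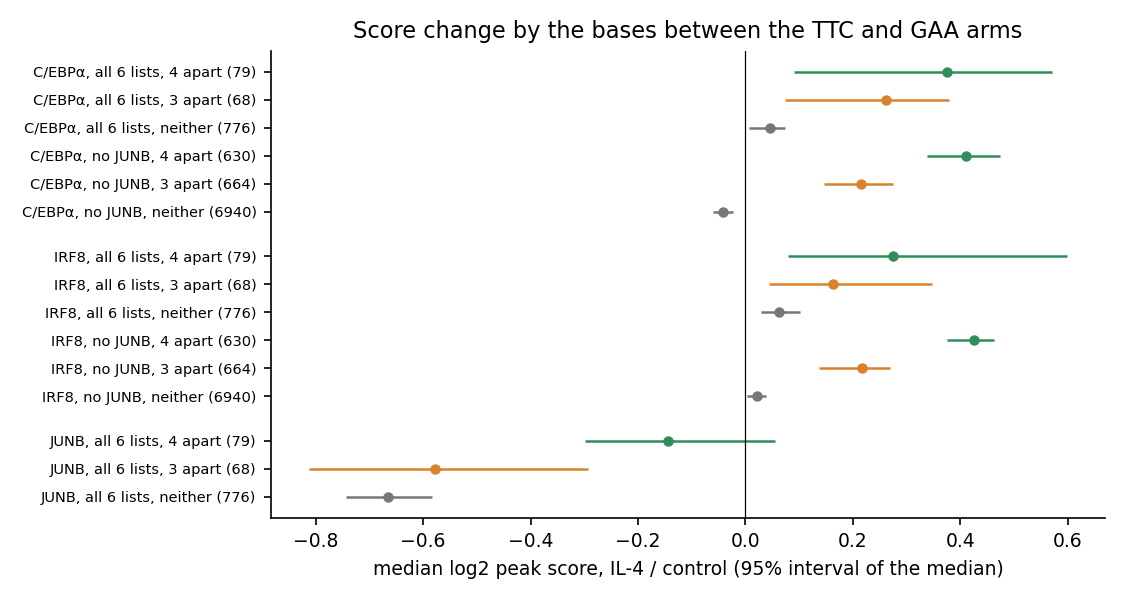
Median log2 ratio of peak scores, IL-4 over control (x axis, points with 95% intervals of the median over regions), by the number of bases between TTC and GAA arms (y axis, number of regions in brackets), for the regions of all 6 lists outside tandem repeats and for regions without JUNB. For each factor the points for 4 bases lie to the right of those for neither spacing, at -0.14 against -0.67 for JUNB.

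In 7 regions all 3 factors scored at least 1.5-fold higher after IL-4, and 5 of these 7 held arms 4 bases apart and 3 held AP-1 letters. Of all 993 regions, 81 (8.16%) held arms 4 bases apart and 45.5% AP-1 letters. The 7 regions were picked by their score changes and the spacing after the data were seen, and no difference was tested. The region with the largest joint change lay in intron 1 of Casp6, an executioner caspase (chr3:129904592-129905249). C/EBPα went from 10.1 to 53.9 there, IRF8 from 19.4 to 83.8 and JUNB from 5.52 to 18.4. The sequence shown above has these arms between a pair of AP-1 matches. Batf3, an AP-1 family gene whose product pairs with JUN proteins, had a region 25485 bp downstream of its TSS where C/EBPα scored 52.0 and 100.58, IRF8 10.2 and 32.9, and JUNB 7.77 and 12.0. Others lay in intron 10 of Sestd1 (nearest gene Ccdc141), in intron 3 of Dpysl2, a cytoskeletal regulator gene, and near 1700045H11Rik, with JUNB scores after IL-4 of 9.28, 10.3 and 8.33 against 4.71, 4.36 and 4.2 in control. Every one of these 7 regions had a JUNB control score below the median of 11.3.

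In 4 regions all 3 factors scored at least 1.5-fold lower, and 3 of the 4 held AP-1 letters and 0 held arms 3 or 4 bases apart. Of the 918 regions outside tandem repeats, 48.9% held AP-1 letters and 15.5% such arms. In intron 4 of Rassf6, a Ras-association domain gene, C/EBPα went from 20.1 to 10.45, IRF8 from 13.1 to 5.14 and JUNB from 6.62 to 2.68. Near Rhov, a small GTPase gene, IRF8 went from 16.9 to 4.15 and JUNB from 13.5 to 6.99. In intron 4 of Ipo9, a nuclear import receptor gene, they went from 68.2 to 38.7 and from 23.7 to 12.5. In intron 1 of 1700011L22Rik they went from 26.1 to 16.5 and from 10.3 to 6.37.

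The regions with the largest score ratio of each factor were as follows. The largest JUNB differences were in intron 2 of Specc1l, a cytoskeletal cross-linker gene, with 30.2 and 2.93, and near the kinase gene Vrk2, with 20.1 and 2.68. At both, the C/EBPα and IRF8 scores were higher after IL-4. JUNB went from 2.82 to 12.5 near the olfactory receptor gene Olfr877 and from 3.6 to 14.75 in intron 1 of Gpr137b-ps, on a TTTG repeat. C/EBPα went from 6.00 to 44.8 near Slc30a4, a zinc transporter gene, in a window with arms 4 bases apart, and IRF8 from 76.7 to 184 there. Near Alg9 C/EBPα went from 3.96 to 22.7 while IRF8 stood at 184 and 202. The lowest C/EBPα ratios were in intron 4 of Adtrp, from 10.1 to 2.59, and in intron 3 of Kat6b, near Dupd1, from 14.3 to 4.28. IRF8 went from 2.72 to 14.1 in intron 3 of 2210414B05Rik and from 6.88 to 31.9 near 9330188P03Rik, and from 20.4 to 3.29 near Sspn and 14.3 to 2.68 near Gorab. Several of these values are near the lower end of their list, where a ratio of scores is large for a small difference.

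The 992 regions with a gene name were assigned to 873 nearest genes, which is 5.86% of the 14899 genes with a peak in any list. Most genes (774) had a single region, and 99 genes had at least 2, holding 218 regions. Of these 99, 82 had 2 regions, 14 had 3 and 3 had 4. Along the chromosome, 164 of 993 regions (16.5%) lay within 50 kb of another. Neither this share nor the number of genes with several regions was computed for other classes, so they are not a comparison.

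The genes with 4 regions were H2afy3 (Macroh2a3 in RefSeq), 1700112H15Rik and Zfp608, each with 26 to 49 merged regions of any list. The H2afy3 regions spanned 141 kb of chromosome 15 and lay 32769 to 173119 bp from its TSS. Their JUNB scores were 25.8, 5.10, 12.7 and 13.1 in control and 8.96, 9.55, 17.1 and 9.28 after IL-4, so that JUNB was lower at 2 and higher at 2. The region of 1700112H15Rik at chr1:184590658-184591226 had C/EBPα scores of 21.2 and 86.2 and IRF8 scores of 22.3 and 87.8, with JUNB at 3.41 and 3.12. At the 4 Zfp608 regions, on chromosome 18, JUNB scored lower after IL-4 throughout, from 9.36, 10.9, 14.7 and 11.2 to 5.63, 5.26, 9.39 and 5.18.

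Cd36, which encodes a scavenger receptor for oxidised lipoproteins, had 3 regions in its first intron, which spanned 40.8 kb and lay 3866 to 8845 bp from the start site that the files name for each. C/EBPα scored 71.4, 42.8 and 68.1 in control and 68.45, 55.6 and 104 after IL-4. IRF8 went from 66.7 to 35.2, from 21.5 to 6.58 and from 14.5 to 24.9, and JUNB from 6.88 to 9.52, from 3.74 to 9.31 and from 18.1 to 11.6. IRF8 and JUNB thus moved in opposite directions at each of the 3. Rgl1, an exchange factor gene for Ral GTPases, had 3 regions in introns 14, 11 and 3, and JUNB scored lower at each, from 14.5 to 7.17, from 20.75 to 4.38 and from 8.32 to 6.43. At Rasgef1b, an exchange factor gene for Ras GTPases, JUNB went from 12.0 to 8.63, 11.4 to 4.76 and 8.81 to 4.24, and at Rap2b, a Ras family GTPase gene, from 9.55 to 3.90, 10.6 to 8.99 and 24.1 to 17.0.

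Other genes of this kind were less uniform. At Asph, an aspartate beta-hydroxylase gene, JUNB went from 14.3 to 17.4, 10.3 to 3.77 and 4.82 to 5.18, beside an IRF8 score of 255 and 266 at the first. At Gm20125 the 3 regions lay 443146 to 597036 bp from the TSS, and JUNB went from 19.4 to 5.80, 18.4 to 6.83 and 11.2 to 18.5. Near Mospd4 JUNB was at 8.41, 9.08 and 7.88 in control and 11.5, 6.27 and 8.07 after IL-4. At 2700054A10Rik, where 2 of the 3 regions are the arrays named above, it went from 7.88 to 10.99, 13.5 to 4.96 and 16.9 to 20.4, and at 1700045H11Rik from 21.7 to 21.1, 10.2 to 7.51 and 4.2 to 8.33. The 3 regions named for Mir3110 lay on 2 chromosomes and were not treated as neighbours.

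Genes of macrophage function were read from 11 lists, and between 6.25% and 41.7% of a list's genes had such a region, beside the 5.86% of all genes given above. Listed genes were not matched for their number of peaks, so the shares are not a comparison. Of 12 genes that the study names as repressed by IL-4, a list it chose,, 5 had a region. Near Clec4d, a C-type lectin gene, JUNB went from 12.7 to 5.26 at 1 region and was at 5.44 and 5.52 at the other. Near Fcgr1, the high-affinity IgG receptor gene, it went from 19.3 to 4.76, and near Lyz1, a lysozyme gene, from 8.74 to 5.89 beside C/EBPα scores of 230 and 226. Near Abca1, the cholesterol exporter gene, JUNB went from 8.81 to 6.37 and IRF8 from 7.0 to 15.5. The fifth was Il1b. Of 3 genes named as activated, only Edn1, the endothelin-1 gene, had regions, with JUNB at 19.2 and 9.66 and at 7.03 and 4.22.

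Inflammatory cytokine and chemokine genes had 6 regions at 6 of 19 genes, and JUNB scored lower after IL-4 at all 6, beside the 26.9% of the whole class that scored higher. C/EBPα was higher at 4 of them and IRF8 at 5. Upstream of Ccl2, a monocyte chemoattractant gene, JUNB went from 20.0 to 10.2 while IRF8 went from 180 to 243. Near Cxcl1, a neutrophil chemoattractant gene, JUNB went from 13.5 to 5.98, and near Il1a from 9.38 to 4.32. Near Cxcl16 it stood at 4.22 after IL-4, a log2 change of -1.24. Il1b and Il1rn were the others. Feedback inhibitors of inflammatory signalling had 4 regions at 3 of 22 genes. JUNB scored lower at Nfkbiz (6.08 to 4.22 and 13.6 to 10.6), Tnip3 (15.8 to 7.31) and Trib1 (8.27 to 4.68). JUNB scored lower at most regions of the whole class, so these few regions do not set either list apart.

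Lineage transcription factor genes had 8 regions at 5 of 23 genes, namely Maf, Runx1, Zeb2, Pparg and Klf6, with JUNB higher at 3. At Zeb2, which maintains macrophage identity, JUNB went from 3.35 to 5.66 and from 6.44 to 10.9, and in the first intron of Pparg, a lipid-sensing nuclear receptor gene, from 5.46 to 7.07. At Maf it went from 14.7 to 9.59 and 12.7 to 5.38, and at Runx1 from 15.4 to 11.5 and 8.97 to 6.79. Among 14 AP-1 family genes, 3 had a region. JUNB went from 23.35 to 6.23 near Atf3 and from 9.23 to 10.2 near Jun, and Batf3 is given above.

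Among pattern recognition and inflammasome genes, 3 of 21 had regions. The Toll-like receptor gene Tlr4 had JUNB scores of 13.2 and 5.58 at its transcript end, where IRF8 scored 247 and 239, and 5.15 and 6.51 at a second region. In an exon of Clec4n, the Dectin-2 gene, JUNB went from 9.29 to 4.44. Phagocytic and scavenger receptors had 6 regions at 4 of 19 genes, with Itgav, an integrin subunit gene, at 10.8 and 4.22, and Cd36, Cd68 and Fcgr1 given above. Lipid handling genes had 5 at 3 of 20, of which Nceh1, a cholesteryl ester hydrolase gene, had JUNB at 15.4 and 5.73. Actin and migration genes had 9 at 6 of 23, with JUNB higher at 1. They included both Itga5 regions (9.62 to 6.70 and 9.55 to 4.76), both Tns3 regions (7.73 to 2.97 and 7.29 to 5.26), Dock10 (20.75 to 9.37) and Elmo1 (12.8 to 5.18 and 5.52 to 6.37), with Fmnl2 and Dock2 as the others. The second Elmo1 region held arms 4 bases apart, and C/EBPα went from 18.2 to 48.4 there. Alternative activation genes had 1 region at 1 of 16 genes, in intron 4 of Tgm2, the transglutaminase 2 gene, with JUNB at 8.74 and 5.26.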

How the data were processed

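ChIP-seq peak lists of 3 factors in 2 conditions were analysed, 1 sample each. Per the submitters' processing notes and the study's methods, reads were aligned to mm10 with BWA 0.7.10, handled with SAMtools 0.1.19, called with MACS2 2.0.10, filtered against blacklisted regions and annotated with HOMER 4.2. The deposited peak score was taken as a −log10 p or q value. Which of these, and whether an input sample was used, is not given in the sources used here. The lowest scores of the lists, 1.3 to 1.76, lie under the limit that the study's methods would set on this scale, so the scale of the scores is uncertain. A score grows with depth as well as enrichment, and 95% intervals cover counting error over regions only.

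Peaks were merged from 1 bp with Python 3.11.15, each region took its highest score per list, and annotation came from the highest C/EBPα control peak. Sequence was read with pysam 0.24.0. Changes are log2 ratios, IL-4 over control, called from 1.5-fold. No test was run. Motifs were searched in 200 bp on both strands, where matches of different motifs may overlap. Scripts were tested on simulated data. All chromosome names matched the reference, no peak ran past a chromosome end, and 86.5% of promoter peaks lay within 1000 bp of an end of the named gene in RefSeq.

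Named were the 12 genes with most regions, the 6 regions of highest rank, regions where all factors passed the fold, the 2 largest changes per factor and direction, 8 promoters and genes of 11 lists. The members and lists were chosen with earlier results of these data known. Some items named by this rule are not reported here.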

Additional observations from a re-analysis of the deposited data

Results flagged for a closer look

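JUNB had a median log2 score change of -0.56 over the 993 regions, while C/EBPα had 0.074 and IRF8 0.10. At these regions JUNB thus scored lower and the other factors slightly higher. Over the whole lists, the median score went from 7.88 to 6.21 for JUNB and from 10.34 to 9.61 for IRF8. That of C/EBPα was 11.2 in both conditions. With each list divided by its median score, the JUNB change at these regions was -0.22. The difference was not tested, since each factor had 1 sample per condition.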

How the results depend on the processing

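With 1 sample per group no replicate could be left out. Peaks of 200 bp, a base common to all lists, merging up to 100 bp apart and mean peak scores moved no value beyond its interval or count beyond 1.5 times. Requiring a score of at least 5 left 666 regions and gave JUNB a median of -0.43. Of these 666, C/EBPα had 95 past the fold higher and 45 lower, IRF8 68 lower, and JUNB 52 higher and 286 lower. The counts are from a smaller set than the 993, so they are not a comparison with the counts above. Dividing each list by its median score gave IRF8 0.21 and 68.2% higher, and JUNB -0.22, 40.8% higher and 182 regions past the fold higher. A fold of 2 left C/EBPα with 58 higher and 26 lower, IRF8 with 78 and 51, and JUNB with 23 and 306. For these alternatives the shares over all merged regions are not given, so the counts cannot be set beside a background. Without tandem repeats, chosen after the data were seen, 24.2% of regions had a higher JUNB score. Within 2000 bp of a TSS the share was 4.03%, and in 100 bp windows AP-1 letters stood in 32.5%. Members within 100000 bp of the TSS left 69 genes with several regions. In 100 bp windows, the IRF8 median with arms 4 bases apart was 0.41 (-0.09 to 0.63). No paired analysis was possible because no result comes from a test.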
